A study of Mus musculus with 6 samples.

Results

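Sp7, Dlx3, Dlx5, Dlx6, Msx1, Msx2, Twist1, Twist2 and Alx4 are transcription factor genes of osteoblasts and of the sutures, the fibrous joints where the bones of the skull roof grow. They were taken as every probe set whose platform annotation gave exactly 1 gene symbol, that symbol being in this list of 9 genes. The rule found 12 probe sets for 9 of 9 genes, out of 45037 probe sets other than array controls. Dlx3, Msx1 and Msx2 had 2 probe sets each, and the other genes had 1. Both Dlx3 probe sets were designed on the same sequence record, as were both Msx1 probe sets, so they are not independent readings of a gene.

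RNA came from sectioned parietal bones of 10-day-old mice and was measured on 1-colour Affymetrix arrays. The groups were wild-type mice, called control, and their 13del-tg littermates, which express a Col10a1-13del transgene and are described as showing bone overgrowth. The labels name no promoter for the transgene, no strain and no sex, and the genotypes share the tissue, the age and the preparation. They list 3 biological replicates of each of 2 genotypes, but the columns of control 1 and 13del-tg 1 held the same value at all 45101 probe sets, while other pairs of arrays shared 0.115% to 0.213% of values. That array, called the shared array, is shown apart. The comparison is 13del-tg 2 and 3 against controls 2 and 3.

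The trimmed mean intensity was 500.003 on every array, and their median ran from 93.8 to 128. With 2 arrays per genotype, every value below has a limited precision. An exact permutation test over 2 arrays against 2 can give no p below 0.333. Col10a1, the collagen X gene that the transgene carries, gave 149.8 and 158.2 in the controls and 152.2 on the shared array, against 15688.7 and 11584.4 in 13del-tg. Osteoblast markers were abundant on all 5 arrays: Col1a1, the main bone collagen chain, lay between 29585.4 and 48235.9, and the bone sialoprotein gene Ibsp between 8649 and 13808.5. Parietal bone sections also held other tissues. The summed intensity of 12 skeletal muscle markers was 178496 (control 2), 29686 (control 3), 248767 (13del-tg 2) and 183036 (13del-tg 3). That of 7 erythroid markers was 21605 and 21672 against 7315 and 8547, and that of 13 chondrocyte markers 36262 and 18182 against 17735 and 8539. For 9 B cell markers it was 9577 and 10217 against 2857 and 5768. The widest gap was in 10 pineal and photoreceptor markers, with 5615 and 11483 against 493 and 475 and 691 on the shared array, a median log2 difference of -4.2 with 5 genes called lower by limma. The part of these tissues in the values below was not tested. In such bulk samples, fewer cells of a type and less RNA per cell cannot be told apart.

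Membranous bone of the skull roof forms when mesenchymal cells turn into osteoblasts without a cartilage model. Sp7 (osterix), a zinc finger factor acting downstream of Runx2, is needed for osteoblasts to form. Dlx and Msx genes encode homeodomain proteins that respond to BMP signals: Dlx proteins are generally described as promoting osteoblast genes, and Msx2 as keeping precursors dividing. Twist1 and Twist2 are basic helix-loop-helix proteins that restrain Runx2. Loss of 1 copy of Twist1 closes sutures early, and loss of Msx2 or Alx4 leaves openings in the parietal bones.

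Between 13del-tg and control, 0 of the 10 probe sets that passed a filter on low values reached an adjusted p under 0.05 in limma, and for 0 was the unadjusted p below 0.05. Over all 27022 probe sets tested, 0.0074% were called higher and 0.0296% lower, so almost nothing on these arrays passed. Before adjustment, 1.42% were higher and 3.72% lower at p under 0.05. Quantile normalization gave 1 call in each direction, against 2 higher and 8 lower. The 10 probe sets stood for 8 genes. Adjusted p-values ran from 0.88 to 0.978, with 4 differences above 0 and 6 below, where 58.6% of all probe sets were below 0. The median log2 difference was -0.15, against -0.075 over all probe sets tested. Centring each array on its median shifted the median of all probe sets by 0.18, and the genes' median stayed 0.078 below it, as without centring (-0.078). In 3 of the 10 both mutant arrays were under both controls, and in 0 they were above both, where the shares over all probe sets were 23.0% and 12.6%. Alx4 and the dimmer Msx2 probe set did not pass the filter, which required a mean log2(signal + 16) of at least 6.28, a signal of 61.9.

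**Figure D1:**
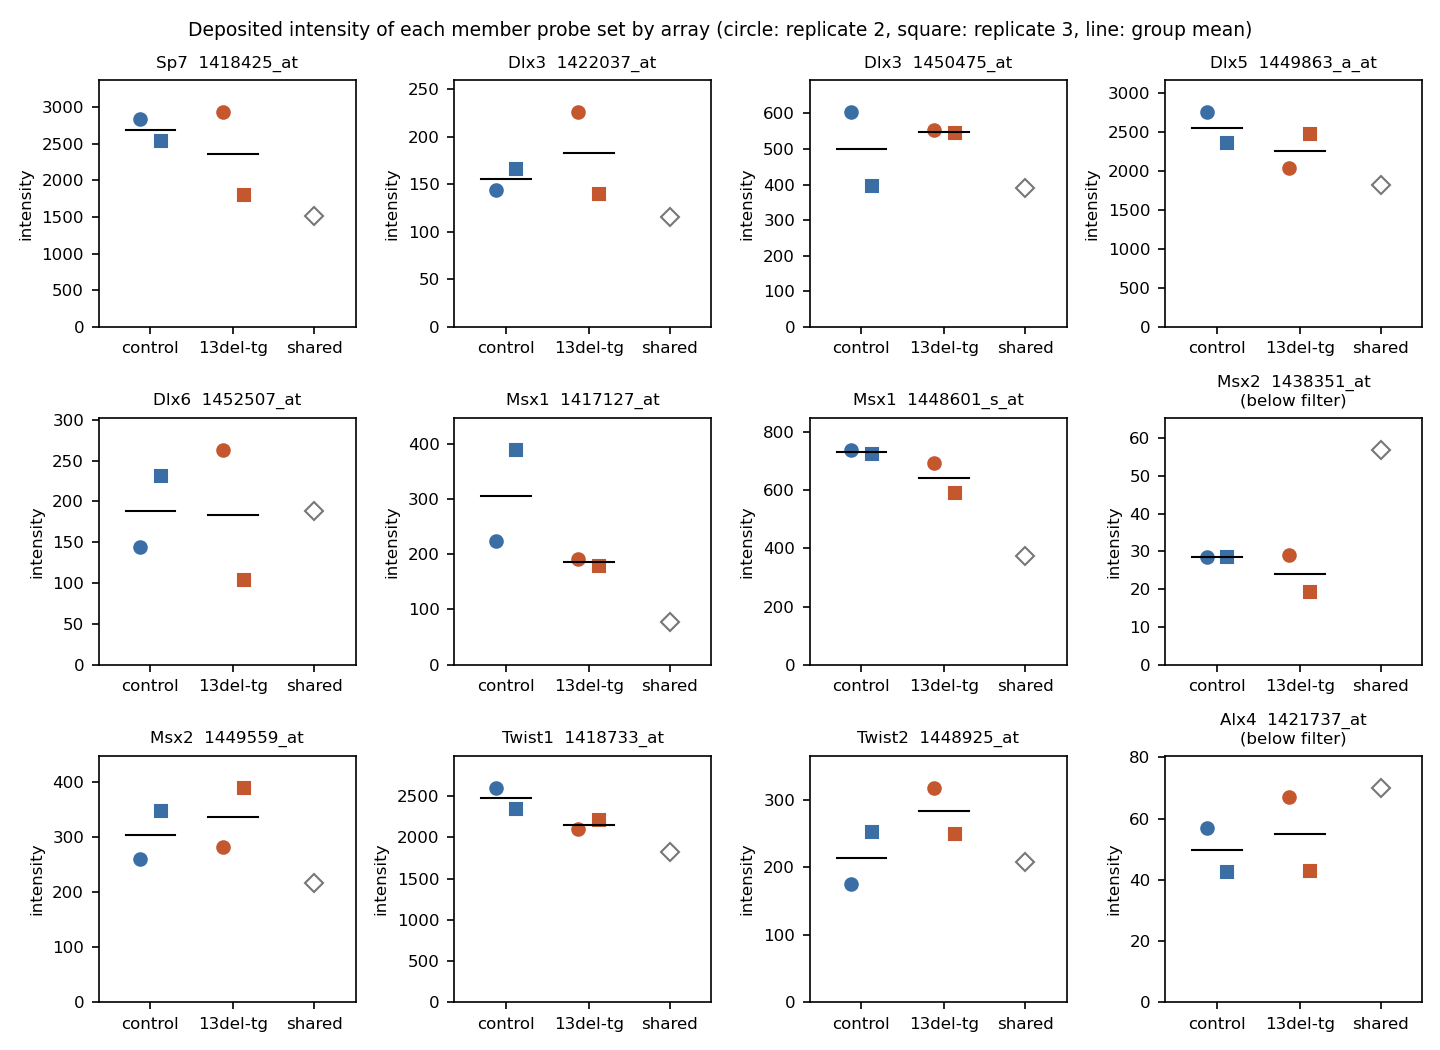
Deposited intensity (linear axis from 0) of each of the 12 probe sets in controls 2 and 3, in 13del-tg 2 and 3 and on the shared array, with lines at the group means. The groups are separate only for both Msx1 probe sets and Twist1, and the shared array is the lowest of the 5 for 8 of the 10 probe sets above the filter.

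Sp7 was bright, and its mutant arrays lay far apart. Controls 2 and 3 had 2836.5 and 2536.2, the 13del-tg arrays 2929.4 (replicate 2) and 1801.9 (replicate 3), and the shared array 1518.9. The groups overlapped, since 13del-tg 2 was above both controls and 13del-tg 3 below both. The log2 difference, 13del-tg minus control, was -0.22 (SE 0.26, 95% interval -0.82 to 0.38, limma adjusted p = 0.916). It turned to 0.13 without 13del-tg 3 and was -0.57 without 13del-tg 2 (limma adjusted p = 0.695). Its sign therefore rests on 13del-tg 3. Adding the shared array as a control gave 0.05, and adding it as 13del-tg gave -0.42.

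Dlx5 and Dlx6, whose proteins act in osteoblasts and in jaw patterning, are next to each other among the protein-coding genes of the RefSeq table (GRCm38.p6). Dlx5 had 2753.2 and 2355.5 in the controls, 2039.8 and 2470.7 in 13del-tg and 1825.6 on the shared array. The groups overlapped, with 13del-tg 3 between the controls. The log2 difference was -0.18 (SE 0.21, 95% interval -0.67 to 0.31), and with arrays centred on their medians it was 0.0032. Dlx6 had 144.7 and 230.8 in the controls, 263.1 and 103.7 in 13del-tg and 188.4 on the shared array. The mutants thus enclosed both controls, and the log2 SD of 0.86 within 13del-tg (n = 2) was the largest among the 12 probe sets. Its log2 difference of -0.12 (SE 0.47) ran from -0.73 without 13del-tg 2 to 0.49 without 13del-tg 3. Quantile normalization gave 0.034 and median centring 0.06. The change of Dlx6 relative to Dlx5 between genotypes, on the log2 scale, was 0.06, with an exact two-sided permutation p of 1.

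Dlx3, a homeobox gene of bone, teeth and skin, had similar small differences on both of its probe sets. The brighter one, 1450475_at, had 603.5 and 396.4 in the controls, 553.6 and 544.8 in 13del-tg and 389.3 on the shared array. The mutants lay close together, between the controls. The log2 difference was 0.16 (SE 0.29, 95% interval -0.5 to 0.83), and -0.13 without control 3. The dimmer one, 1422037_at, had 144.5 and 165.8 against 225.9 and 139.7, with 115.5 on the shared array. Here 13del-tg 2 alone stood above the rest, and the log2 difference of 0.18 (SE 0.37) turned to -0.13 without it. Dlx4, the protein-coding neighbour of Dlx3 in the RefSeq table and named here for that position, had 111.1 and 117.5 against 164.5 and 61.9. Its log2 difference was -0.14 (SE 0.48), with the mutants on either side of the controls.

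Msx1, a homeodomain repressor of craniofacial mesenchyme, was lower on both 13del-tg arrays on both probe sets, without passing the test. Probe set 1448601_s_at, the brighter, had 738.8 and 726.5 in the controls, 692.7 and 590 in 13del-tg and 372.8 on the shared array. Its log2 difference was -0.19 (SE 0.24, 95% interval -0.75 to 0.36, limma adjusted p = 0.923). With arrays centred on their medians it was -0.0081, and with quantile normalization -0.11. Probe set 1417127_at had 224 and 389.2 in the controls, 192 and 179.5 in 13del-tg and 76.6 on the shared array. The groups did not overlap, but the gap between the controls was wider than that between control 2 and either mutant. Its log2 difference, -0.63 (SE 0.36, 95% interval -1.45 to 0.19, limma adjusted p = 0.88), was the largest of the 10 in size. It was -0.25 without control 3, -1.01 without control 2, -0.45 with median centring and -0.5 with quantile normalization. The Msx1 differences depend on the label given to the shared array: with it as 13del-tg the differences were -1 and -0.44 (1417127_at and 1448601_s_at), and with it as a control they were -0.045 and 0.12. Col10a1 on that array, 152.2, was at the controls' level, which goes against 1 of its labels, 13del-tg.

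Msx2, its close relative and the gene altered in Boston-type craniosynostosis, had 261 and 347.5 in the controls on 1449559_at, 282.7 and 389.6 in 13del-tg and 216.1 on the shared array. The groups overlapped, and the higher value of each belonged to replicate 3. The log2 difference was 0.13 (SE 0.32, 95% interval -0.6 to 0.86), and it fell below 0 without control 2 (-0.063), without 13del-tg 3 (-0.087) and with the shared array as 13del-tg (-0.061). The second Msx2 probe set, 1438351_at, was designed on another record and lay below the filter. It had 28.4 in each control, 29.1 and 19.2 in 13del-tg and 56.9 on the shared array, with a log2 difference of -0.16 (SE 0.45) in the fit without the filter. Its sign is opposite to that of the brighter probe set, and both intervals span 0. The change of Msx2 relative to Msx1 was 0.33 on the log2 scale (exact two-sided permutation p = 0.667, brighter probe sets).

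Twist1 had the smallest error of the set. Its intensity was 2599.8 and 2346.6 in the controls, 2097.6 and 2203.1 in 13del-tg and 1824.9 on the shared array. Both mutants lay below both controls. The log2 difference was -0.2 (SE 0.2, 95% interval -0.65 to 0.25, limma adjusted p = 0.9). It stayed below 0 in all 18 alternatives, which reuse the same arrays. These ran from -0.28 with the shared array as 13del-tg to -0.015, close to 0, with arrays centred on their medians. Twist2, which resembles Twist1 in sequence and is strong in dermis, had 175.8 and 252.7 in the controls, 317.7 and 249.2 in 13del-tg and 208.3 on the shared array. Control 3 and 13del-tg 3 were nearly equal, so the groups overlapped. The log2 difference was 0.39 (SE 0.33, 95% interval -0.38 to 1.16, limma adjusted p = 0.89), the highest of the 10, and its range over the 18 alternatives was 0.15 to 0.63. The Twist2 change exceeded the Twist1 change by 0.59 on the log2 scale. Against the mean of the controls the log2 ratio of Twist2 to Twist1 was -0.32 (control 2), 0.32 (control 3), 0.79 (13del-tg 2), 0.39 (13del-tg 3) and 0.42 (shared array). The groups were separate by a small margin, with the shared array between the mutants, and the exact two-sided permutation p was 0.333, the smallest possible.

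Alx4, a paired-type homeobox gene of the parietal bone field, was dim on every array. It had 57.1 and 42.7 in the controls, 67.2 and 42.8 in 13del-tg and 70.1 on the shared array. The log2 difference in the fit without the filter was 0.095 (SE 0.49, 95% interval -1.05 to 1.24), with overlapping groups. This interval spans more than a 2-fold change in each direction, so a change of that size was not detectable at this signal and number of arrays.

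**Figure D2:**
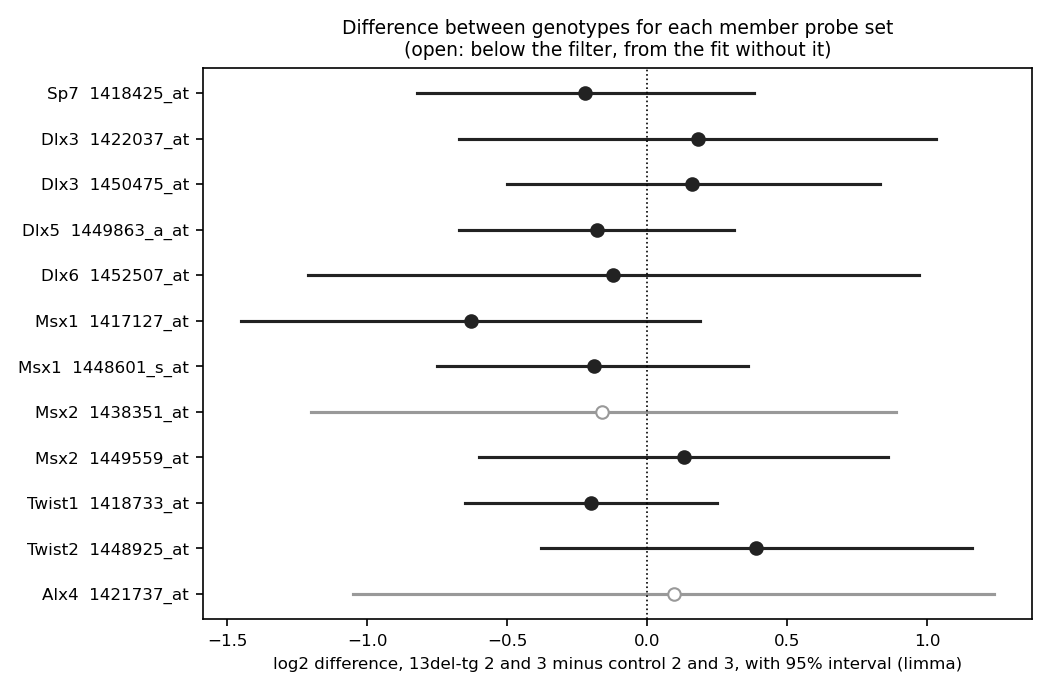
Log2 difference, 13del-tg minus control, of each of the 12 probe sets with its 95% interval from limma, with open symbols for the 2 below the filter. All intervals cross 0, and the narrowest, that of Twist1, runs from -0.65 to 0.25.

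The intervals set what these arrays could show. For 6 of the 10 probe sets the 95% interval, not adjusted for multiple testing, lay within 1 on the log2 scale on either side. These were Sp7, Dlx5, Twist1, 1450475_at of Dlx3, 1448601_s_at of Msx1 and 1449559_at of Msx2. This leaves out a 2-fold change for them on the deposited scaling only. Median centring moved 1450475_at of Dlx3 to 0.35 and 1449559_at of Msx2 to 0.32, and intervals on that scaling are not given here. For Dlx6, Twist2 and the other probe sets of Dlx3 and Msx1, a 2-fold change in at least 1 direction lay inside the interval. At the error of each probe set, the largest unadjusted p still called over the whole table (1.81e-05) would need a log2 difference of 1.77 for Twist1 and 4.26 for Dlx6. This limit is approximate, since the adjustment shifts it with the number of probe sets called. Much smaller changes would not have passed at these errors, with the other probe sets as they were.

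The shared array stood lower than the other 4 for most of these genes. It was the lowest of 5 for 8 of the 10 probe sets, where 20.9% of all probe sets tested had it lowest. The exceptions were Dlx6 and Twist2. Its median deviation from the mean of controls 2 and 3 was -0.44, against -0.00034 over all probe sets tested. On the same scale control 2 had a median of -0.039, control 3 0.039, 13del-tg 2 0.024 and 13del-tg 3 -0.15. The 12 measured genes of osteoblast matrix and mineral had the shared array lowest in 12 of 12, with a median of -0.58, and 13del-tg 2 and 3 at 0.07 and 0.17. The 10 periosteal and suture fibroblast markers had -0.39 on the shared array. The 12 skeletal muscle markers had 2 there, but also 1.8 on 13del-tg 2, 1.2 on 13del-tg 3 and 1.4 on control 2. Control 3 was the low array for muscle, at -1.4. The part of the tissue make-up in the low values of the shared array was not tested.

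**Figure D3:**
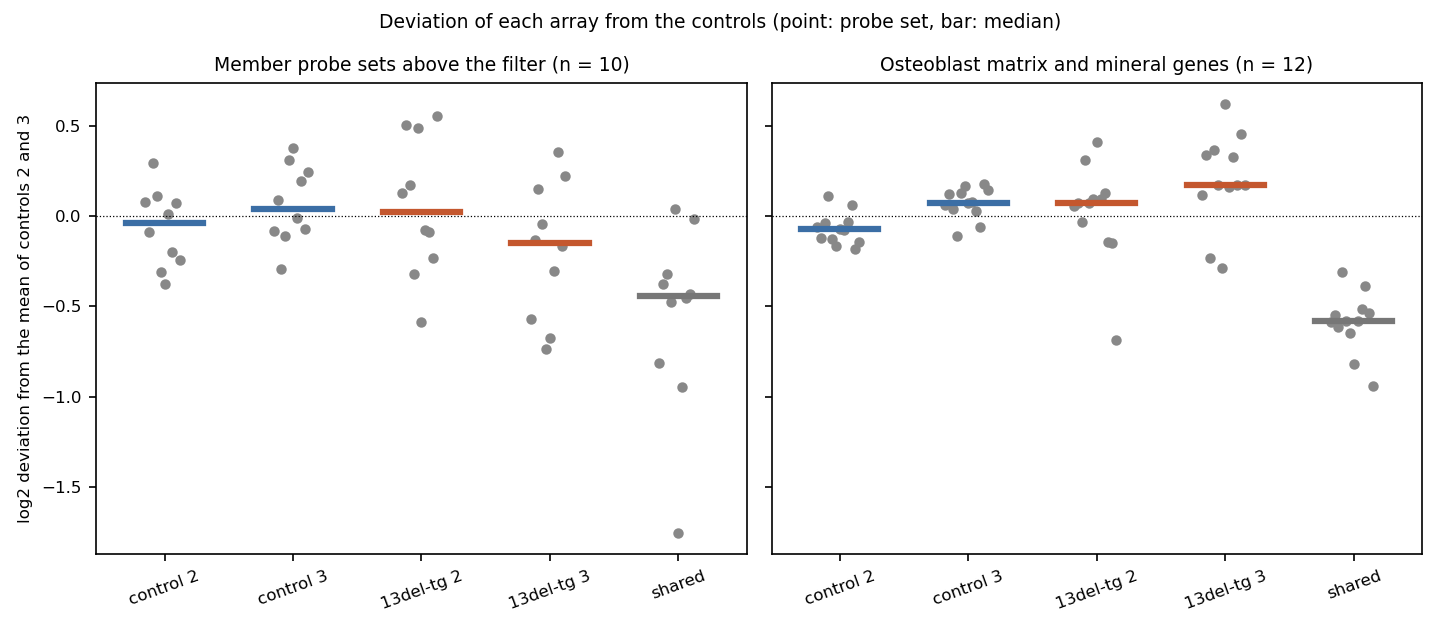
Deviation of each array from the mean of controls 2 and 3 on the log2(signal + 16) scale, for the 10 probe sets of these genes above the filter (left) and the 12 osteoblast matrix and mineral genes (right), with bars at the medians. The shared array has medians of -0.44 and -0.58, while those of the 4 arrays compared lie between -0.15 and 0.17 in both panels.

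Genes that work with or beside these factors also gave no call, each read from the brightest probe set above the filter. The list medians below move with the scaling: centring arrays on their medians, which put all probe sets at 0.11, raised them to between 0.026 (suture and craniosynostosis genes) and 0.31 (osteoblast matrix and mineral genes). Among 30 other osteoblast transcription factors, 24 were measured, and 0 passed by limma, where 0.0156% of all 12859 genes were called higher and 0.0544% lower. Before adjustment 1 was higher and 0 lower at p under 0.05, where 1.54% and 4.68% of all genes were. The median was -0.064, with 8 above 0 and 16 below, and 0.015 without 13del-tg 3. Jund, a subunit of the AP-1 complex, had 2744.2 and 2675.9 in the controls and 3940.8 and 4531.9 in 13del-tg, a log2 difference of 0.64 (SE 0.19, limma adjusted p = 0.874). Foxo1, a forkhead factor of osteoblasts, had -0.42 (SE 0.23), Tbx2, a T-box repressor, -0.46 (SE 0.3) and Maf, a leucine zipper factor, -0.33 (SE 0.23). No probe set here carried Runx2 as its only symbol.

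Of 24 homeobox genes related by family or expression in the skull, 14 were measured, 5 with a difference above 0 and 9 below, with a median of -0.022 (0.057 with quantile normalization, and from -0.22 without 13del-tg 2 and -0.18 without control 2 to 0.074 without 13del-tg 3). None passed by limma, also before adjustment (0 at p under 0.05). Msx3 had -0.62 (SE 0.38) from signals of 138 and 109.9 against 73 and 76.5, near the filter's level. Six2, a marker of suture mesenchyme, had -0.35 (SE 0.25), Pbx2, a partner of homeodomain proteins, -0.3 (SE 0.26) and Shox2 0.44 (SE 0.47).

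Twist proteins act as dimers with E proteins, and Id proteins compete for these. Of 9 genes in this list 7 were measured, 5 above 0 and 2 below, with a median of 0.078 that quantile normalization turned to -0.02 and that was 0.014 without 13del-tg 3 and 0.12 without 13del-tg 2. None passed the limma test, with 0 at p under 0.05 before adjustment. Id1, an Id gene induced by BMP, had 2947.7 and 2799.3 in the controls, 3649.9 and 3817.7 in 13del-tg and 2264 on the shared array. Both mutants lay above both controls, with a log2 difference of 0.38 (SE 0.19, limma adjusted p = 0.88). Id3 had 0.15 (SE 0.19) and Id4 -0.37 (SE 0.27). The E protein gene Tcf3 had -0.2 (SE 0.23).

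BMP signals induce Msx and Dlx genes, and of the 14 measured BMP response genes 9 were above 0 and 5 below. Their median was 0.046, and between 0.074 and 0.11 with any of the 4 arrays left out. It turned to -0.057 with the shared array as 13del-tg and was 0.22 with that array as a control. None was past the threshold or at an unadjusted p under 0.05 by limma. Besides Id1 and Id4, Junb had 0.5 (SE 0.3) and Atoh8 0.52 (SE 0.36), both with the mutants above the controls.

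Suture and craniosynostosis genes had a median of -0.16 (-0.059 with quantile normalization), with 17 of 22 measured members below 0 and 5 above. This median was -0.25 without 13del-tg 2, -0.074 without control 2, -0.098 without control 3 and 0.022 without 13del-tg 3. Its sign also turned with arrays centred on their medians (0.026), so it depends on that last array and on the scaling. Again 0 passed by limma, and 1 was lower at an unadjusted p under 0.05. This was Zic1, a zinc finger factor of the skull and meninges, with 3104.8 and 3894.8 in the controls, 2100.6 and 1542.1 in 13del-tg and 620.3 on the shared array. Both mutants lay below both controls, and the shared array far below all 4. Its log2 difference was -0.94 (SE 0.23, limma adjusted p = 0.655). Pineal and photoreceptor markers were lower as well: their median was -3.6 on the shared array, with 10 of 10 lower in 13del-tg. Brain and meninges markers were mixed. Of 9 measured, 6 were below 0 and 3 above, with a median of -0.16 in the comparison and -0.9 on the shared array. Their summed intensity was 7622 and 7507 in the controls, 9186 and 6519.5 in 13del-tg and 8560.1 on the shared array. These sums weigh bright markers most. Mbp alone made up 1453.6 and 1588 in the controls, 3525.2 and 980.1 in 13del-tg and 5709.6 on the shared array. Similar sums therefore do not show a similar content of brain tissue. Of the brain and meninges markers 1 passed, the synaptic gene Snap25 at -3.86 (SE 0.4, limma adjusted p = 0.038). The part of these tissues in the Zic1 values was not tested. Efna4, an ephrin ligand, had -0.7 (SE 0.31) and the receptor gene Fgfr2 -0.36 (SE 0.18, from 5035.6 and 5157 to 3871.4 and 4091.8), both with separate groups.

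The osteoblast matrix and mineral genes, the products that Sp7 and its partners help to switch on, had 9 of 12 above 0, 3 below and a median of 0.12. This median was -0.02 with quantile normalization, -0.11 with the shared array as 13del-tg, 0.041 without control 2, 0.22 without control 3 and 0.07 without 13del-tg 3. None passed by limma, and 1 was higher at an unadjusted p under 0.05: Ifitm5, a membrane protein of mineralizing osteoblasts, at 0.52 (SE 0.18, limma adjusted p = 0.88). Ibsp had 0.34 (SE 0.18), Omd, a keratan sulfate proteoglycan of bone, 0.23 (SE 0.18) and Col1a2 0.2 (SE 0.19). Whether this list differed from the transcription factors was not tested.

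**Figure D4:**
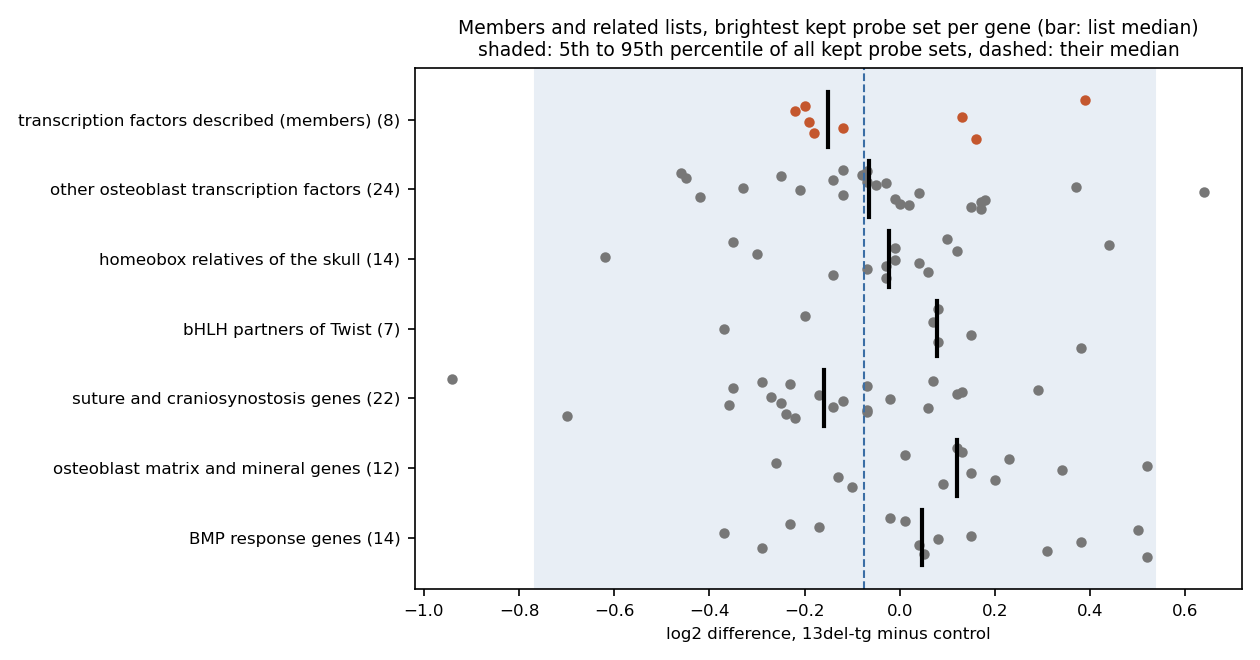
Log2 difference, 13del-tg minus control, of each measured gene (points, 1 probe set per gene) in the 8 transcription factor genes described here and in 6 related lists, with list medians as bars. The shaded band holds the 5th to 95th percentile of all 27022 probe sets, -0.77 to 0.54, and all 8 genes lie inside it.

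Likeness over the 5 distinct arrays was measured as the root mean square difference of log2 values after each gene was centred on its own mean. Among the 8 genes above the filter (Alx4 was not compared), Twist1 and Dlx5 were closest to each other, at 0.073, and Sp7 and Msx1 next, at 0.17. Of 12320 other genes, 16 or more were closer to each of them than that, so this is no mark of the pair. For Twist1 the nearest were the protease gene Htra1 (0.024), Spock2 (0.03) and Nf2 (0.033). For Dlx5 they were Cdkn2c (0.037), Atp6ap2 (0.042) and Glb1 (0.048). Sp7 had Fbf1 (0.05), Slco1a4 (0.062) and Cldn2 (0.087). Msx1 had Nadk2 (0.056), Tex261 (0.062) and Col12a1 (0.072), a collagen of dense connective tissue. The nearest to Msx2 were Cask (0.02), Imp3 (0.022) and Leprotl1 (0.032). Dlx3 had Gli2 (0.045), a hedgehog pathway factor, Pcdhb22 (0.063) and Zfp11 (0.065). Dlx6 had Lhx6 (0.058), a LIM homeobox gene, Ggn (0.085) and Trim16 (0.088). Twist2 had Msr1 (0.052), C1qtnf7 (0.065) and Ranbp17 (0.065). The median over all genes was 0.29 for Twist1 and 0.5 for Dlx6. With 5 arrays, many genes come this close to any profile.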

How the data were processed

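Each array holds 1 intensity per probe set, deposited on a linear scale, and the submitters' processing notes name MAS5, whose version is not given in the sources used here. MAS5 signals are never negative and are noisy when low, so a pseudocount and a filter were used: log2(signal + 16) was analysed without normalizing again, leaving out 64 control probe sets and those under the 40th percentile of the mean over 5 distinct arrays, which kept 27022. Groups were compared in limma 3.58.1 under R 4.3.3 (lmFit, then eBayes with trend). Each probe set had 1 two-sided test, Benjamini-Hochberg adjustment ran over all of them, and the threshold was 0.05. There were 2 residual and 6.01 prior degrees of freedom, and the code was tested on simulated data. Intervals are at 95%. P-values rest on the spread between arrays labelled as biological replicates. For each probe set eBayes draws this spread toward a trend over all probe sets. With more prior than residual degrees of freedom, that trend weighs more than the probe set's own 4 values.

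Symbols came from the platform annotation: 34945 probe sets had 1 symbol, 932 several, and 9160 had none here. Gene numbers of 9 of 9 genes matched the RefSeq table. The genes and lists were chosen with earlier results of these data known. Named besides the 9 genes are the 3 nearest profiles of each of the 8 above the filter, up to 4 genes with the smallest p of each list, and Col10a1. Col1a1, Dlx4, Mbp and Snap25 fall outside this rule and were named after their values were seen. Predicted and Riken genes were passed over. Detection calls and scan dates were not used here.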

Additional observations from a re-analysis of the deposited data

How the results depend on the processing

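No probe set of the 9 genes passed in any of the 18 alternatives. In 3 of them 1 had an unadjusted p under 0.05: 1417127_at of Msx1 when control 2 was left out or the shared array counted as 13del-tg, and Sp7 without 13del-tg 2. The count over all probe sets, 2 higher and 8 lower, was 1 and 1 with a pseudocount of 1, with the 60th percentile filter and with quantile normalization. It was 1 and 0 without a filter, without the trend and with the shared array as a control, 0 and 0 with that array under both labels and 0 higher with it as 13del-tg. The lower calls numbered 5 with a pseudocount of 64, 21 with median centring and 18 with robust eBayes. Leaving out 1 array, which assumes that the lone array varies like the others, gave 1 to 199 higher and 5 to 43 lower, the highest of both without control 2. The replicate number as a block gave 330 higher and 338 lower and no call among the 9 genes. Deviations of control 2 and 13del-tg 2 correlated at 0.22 over 27022 probe sets, but the labels do not say that a number pairs animals, and with 2 pairs the numbers were not taken as pairing.

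The genes' median, -0.15, was -0.04 with quantile normalization, 0.032 with median centring, 0.086 with the shared array as a control and from -0.17 to 0.024 when 1 array was left out. Signs turned in 14 of 173 values of single probe sets. With 1 array left out, Sp7 ran from -0.57 to 0.13, Dlx6 from -0.73 to 0.49, Msx2 from -0.087 to 0.35, 1450475_at of Dlx3 from -0.13 to 0.45 and 1422037_at from -0.13 to 0.5. With quantile normalization Dlx6 was 0.034, and with median centring it was 0.06 and Dlx5 0.0032. With the shared array as a control Sp7 was 0.05 and 1448601_s_at of Msx1 0.12, and as 13del-tg 1422037_at of Dlx3 was -0.003 and Msx2 -0.061. The cause was not tested. Of 108 list medians 25 moved by more than their spread between arrays.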
